A study of Homo sapiens and Mus musculus with 13 samples.

Results

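The regions described here are RNA:DNA hybrid peaks of E14 mouse embryonic stem cells that were also listed in 3T3 mouse embryonic fibroblasts by both assays run there. A peak of the E14 DRIP-seq list was taken as shared when at least 1 bp of it was touched by the 3T3 DRIP-seq list and at least 1 bp by the 3T3 DRIPc-seq list, with strand ignored, on chromosomes 1 to 19 of build mm9. Of 52246 E14 peaks on these chromosomes, 12548 were shared, or 24.0% (23.7 to 24.4%). The whole E14 list holds 53859 peaks. The 3 mouse lists belong to a series of 13 samples from human and mouse lines. In all 3, genomic DNA was cut with the same restriction enzymes, SspI, XbaI, BsrGI, EcoRI and HindIII. No genetic change, treatment, passage or sex is named for either line. Each list stands for 1 sample, so no value has a replicate check and no test was made, and E14 and 3T3 cells differ here by library as well as by cell type, which cannot be told apart. Ranges in parentheses after a share are exact Clopper-Pearson 95% intervals for counting error alone, and neighbouring peaks are not independent of each other.

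An R-loop forms when RNA pairs with its DNA template and leaves the other DNA strand unpaired. In mammalian cells such structures are known to arise mostly during transcription, with sites at GC-skewed promoters and at the ends of genes among the best described. DRIP-seq recovers hybrids with an antibody from restriction fragments and sequences the DNA without strand, whereas DRIPc-seq sequences the RNA strand, so its peaks name the strand that the RNA matches. No RNase H control list from mouse cells was analysed here, so whether the signal at a given shared peak came from hybrids was not tested. No mouse genome or annotation was at hand either, so the regions are given by position, without gene names or sequences.

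The lists differ in size and grain. On chromosomes 1 to 19 the E14 DRIP list covered 126.7 Mb with a median peak length of 1758 bp. The 3T3 DRIP list held 35219 peaks covering 121.0 Mb with a median of 2199 bp, and the 3T3 DRIPc list held 39004 peaks covering 84.2 Mb with a median of 1060 bp. Read depth is unknown, since the lists hold positions without counts, heights or p-values. A region absent from one of them was not called there, which does not show that it lacked hybrids. The name of the 3T3 DRIPc list mentions RNase A although the labels do not, so whether that library was treated with it is not known.

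Membership in one 3T3 list went with membership in the other. Of the E14 peaks, 48.5% touched a 3T3 DRIP peak and 30.3% touched a 3T3 DRIPc peak. Among E14 peaks touched by 3T3 DRIP, 49.5% (48.9 to 50.2%) were also touched by DRIPc and thus shared. Among those not touched by 3T3 DRIP, DRIPc was found at 12.2% (11.8 to 12.5%). The gap between these shares was present at each peak length. In the shortest quartile of E14 peaks, from 100 to 901 bp, DRIPc was found at 33.7% of peaks touched by 3T3 DRIP and at 10.5% of the others. In the longest quartile, over 3110 bp, it was found at 63.1% and 15.8%. Counted from the 3T3 lists, 45.7% of 3T3 DRIP peaks touched DRIPc and 32.0% touched both DRIPc and E14, while 58.8% of DRIPc peaks touched 3T3 DRIP and 39.9% touched both DRIP lists. Both 3T3 lists come from the same cell line, and these shares follow from the same overlaps that define the shared peaks, so they are a description of the set.

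The remaining 39698 E14 peaks fall into 3 groups. A 3T3 DRIP peak but no DRIPc peak touched 12781 of them, a DRIPc peak but no 3T3 DRIP peak touched 3271, and 23646 touched neither list. The rule admits a touch of a single base. The weakest member by touch, chr4:138777960-138780916, met the DRIPc list over 1 bp, and the next, chr17:56238749-56240516 and chr3:100443091-100443702, met it over 2 bp. In all, 150 shared peaks (1.20%) had under 50 bp in one of the 3T3 lists. Just outside, 1878 of the peaks touched by 3T3 DRIP alone (14.7%) had a DRIPc peak within 1 kb, and 516 of those touched by DRIPc alone (15.8%) had a 3T3 DRIP peak within 1 kb. The longest peaks outside the set were chr12:22162241-22462114, which is 299874 bp long and has 9370 bp of DRIPc signal but no 3T3 DRIP peak, chr11:64821735-64848002, which touched neither list, and chr2:28713291-28734072, with 1565 bp of 3T3 DRIP and no DRIPc.

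Being touched by all 3 lists did not mean that the lists lay on the same bases. For 552 shared peaks (4.40%) no base was common to the 3 lists, so that "shared by all lists" describes the E14 peak and not a common hybrid. The median shared peak was covered by 3T3 DRIP over 99.96% of its length (quartiles 78.6 and 100%) and by DRIPc over 57.7% (27.4 and 91.6%). The bases common to the 3 lists, which need not be contiguous, summed to 1045 bp per peak at the median (440 and 2160 bp). Together they came to 20.7 Mb, which is 16.4% of the bases in the E14 list, 17.1% of those in the 3T3 DRIP list and 24.6% of those in the DRIPc list. E14 peaks touched by 3T3 DRIP alone were covered by it over 95.2% at the median (57.7 and 100%). In the shortest quartile both medians were 100%, and in the longest they were 98.0% for shared peaks and 75.2% for peaks touched by 3T3 DRIP alone. For DRIPc the order was the reverse with all lengths pooled, at 57.7% of the shared peak covered at the median and 69.3% of peaks touched by DRIPc alone. In the longest quartile these were 48.2% and 43.9%.

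Many shared peaks had no exclusive partner in the 3T3 DRIP list. A single 3T3 DRIP peak touched 9868 of them (78.6%), 2 touched 2183, and 3 or more touched 497. For 4536 shared peaks (36.1%) the E14 and the 3T3 DRIP peak touched each other and no further peak of either DRIP list. In these matched pairs the 3T3 peak was 1.12 times as long as the E14 peak at the median (quartiles 0.708 and 1.85), and 27.8% of pairs had a length ratio between 0.8 and 1.25. Edges seldom coincided: 5.92% (5.63 to 6.22%) of the edges of shared peaks lay within 50 bp of a like edge of a touching 3T3 DRIP peak, against 7.01% (6.70 to 7.33%) for peaks touched by 3T3 DRIP alone. Among peaks of like length the difference was uneven. From the shortest to the longest quartile the shares were 8.30, 7.20, 4.95 and 5.38% for shared peaks and 9.57, 7.27, 6.60 and 5.31% for peaks touched by 3T3 DRIP alone. In the third quartile the intervals lay apart, 4.42 to 5.52% and 6.03 to 7.20%, and in the others they overlapped. From the 3T3 side, the shared peaks were met by 12248 DRIP peaks, 34.8% of that list. The median length of these was 3695 bp, and that of the other 3T3 DRIP peaks 1663 bp. They were met by 16477 DRIPc peaks, 42.2% of that list, whose median length was 1360 bp where other DRIPc peaks had 880 bp.

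Shared peaks were the longer part of the E14 list. Their median length was 2841 bp (quartiles 1567 and 4835 bp), against 1511 bp (784 and 2644 bp) for the rest. By group, the medians were 2841 bp for shared peaks, 1917 bp for peaks touched by 3T3 DRIP alone, 1469 bp for those touched by DRIPc alone and 1308 bp for those touched by neither. Shared peaks made up 24.0% of the list by number and 36.7% of its covered bases, 46.5 Mb. Peaks over 10 kb numbered 585 among the shared (4.66%) and 238 among the far more numerous rest, while peaks under 500 bp made up 2.82% of shared peaks and 12.5% of the rest. The shared median was the longer on 19 of 19 chromosomes, between 2455 and 3236 bp for shared peaks and between 1350 and 1643 bp for the rest. A long peak is more easily touched, so length is tied to the rule and this difference supports nothing about the peaks themselves. The share of E14 peaks that were shared was 9.58% in the shortest quartile and 44.1% in the longest.

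**Figure D1:**
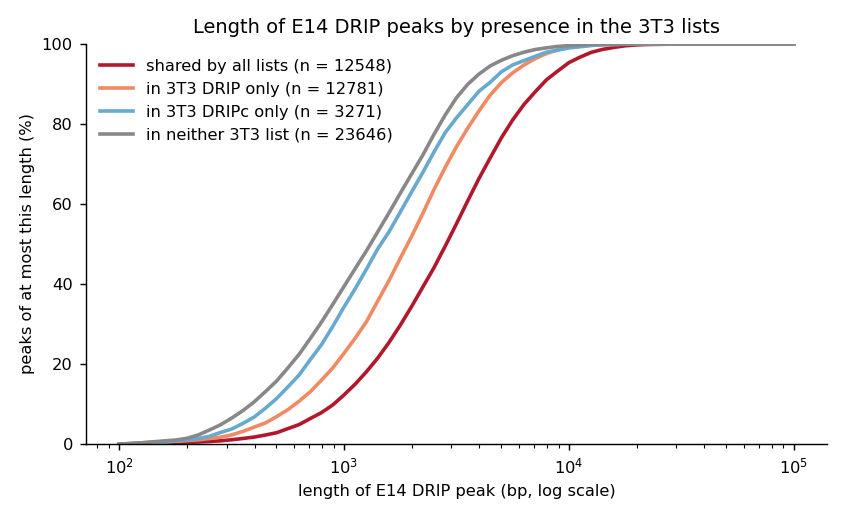
Cumulative share of E14 DRIP peaks (vertical axis, percent) up to each length (horizontal axis, bp on a log scale) for 12548 peaks shared by all lists, 12781 also in 3T3 DRIP only, 3271 also in 3T3 DRIPc only and 23646 in neither 3T3 list. The curve of shared peaks lies to the right, with a median of 2841 bp, and that of peaks in neither list to the left, with a median of 1308 bp.

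The authors' class names, given in column 4 of both DRIP lists, were not used by the rule, and shared peaks carried them in other proportions than the rest. What defines the 4 classes is not stated in the labels or files. Noisy_BroadPeak was the name of 33.7% (32.9 to 34.6%) of shared peaks, 4233 in number, against 15.0% (14.7 to 15.4%) of the rest. Noisy_MedPeak was given to 63.4% (62.5 to 64.2%) of shared peaks and 77.8% (77.4 to 78.2%) of the rest. Sparse_MedPeak was rare among shared peaks, at 1.07% (134 peaks) against 4.29%, and Sparse_SharpPeak made up 1.82% (228 peaks) against 2.92%. These were about as rare among peaks touched by 3T3 DRIP alone, at 0.986% and 1.59%, and more frequent among those in neither list, at 6.39% and 3.85%. By quartile of length, Sparse_SharpPeak was less frequent among shared peaks in the shortest alone, at 4.07% against 7.66% of the rest. In the longest it was more frequent, at 1.94% against 0.822%.

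The higher share of Noisy_BroadPeak was also present among peaks of like length. In the shortest quartile it was 25.4% (23.0 to 27.9%) for shared peaks and 11.2% (10.6 to 11.8%) for the rest. In the longest quartile it was 36.5% (35.2 to 37.7%) and 18.0% (17.1 to 18.9%). Peaks touched by 3T3 DRIP alone lay between, with 15.6% in the shortest and 25.8% in the longest quartile. In the shortest quartile, peaks touched by DRIPc alone, at 10.9%, stood beside those in neither list, at 9.91%. In the longest they were lower, at 7.75% (5.77 to 10.2%) against 12.0% (10.9 to 13.2%). Seen from the classes, 41.5% (40.6 to 42.5%) of E14 peaks named Noisy_BroadPeak were shared, 20.5% of Noisy_MedPeak, 16.5% of Sparse_SharpPeak and 7.29% of Sparse_MedPeak. Sparse_SharpPeak was divided by length: 65.1% (57.5 to 72.2%) of its 172 peaks over 3110 bp were shared, but 5.33% of its 956 peaks of at most 901 bp. Shared peaks of the class were 2976 bp long at the median, and peaks of the same name in the rest 355 bp. The other classes were also shared more often in the longest quartile than in the shortest, and length is tied to the rule. The shares were 61.5% and 19.4% for Noisy_BroadPeak, 38.5% and 8.59% for Noisy_MedPeak, and 15.1% and 4.92% for Sparse_MedPeak. Members named Noisy_BroadPeak had a median of 3077 bp, those named Sparse_MedPeak 3012 bp and those named Noisy_MedPeak 2732 bp.

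The class given to the matching peak in fibroblasts leaned the same way. For each E14 peak, the 3T3 DRIP peak with the longest overlap was taken. It was named Noisy_BroadPeak at 22.8% (22.1 to 23.6%) of shared peaks and at 6.64% (6.22 to 7.09%) of peaks touched by 3T3 DRIP alone, where 11.1% of the whole 3T3 list carries that name. Shared peaks named Noisy_BroadPeak in E14 had a 3T3 partner of that name in 38.2% (36.7 to 39.7%) of cases, against 10.9% (9.83 to 12.1%) at peaks touched by 3T3 DRIP alone. The name was the same in both cell lines at 65.2% of shared peaks and at 70.3% of peaks touched by 3T3 DRIP alone. Such agreement depends on how common Noisy_MedPeak is, a name carried by the partner at 72.5% and 88.3% of them. The agreement to be had from the frequencies of the names was not computed, so the shares do not rank the groups. These partners were chosen by overlap with peaks that are themselves longer, and lengths of the 3T3 partners were not adjusted for.

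**Figure D2:**
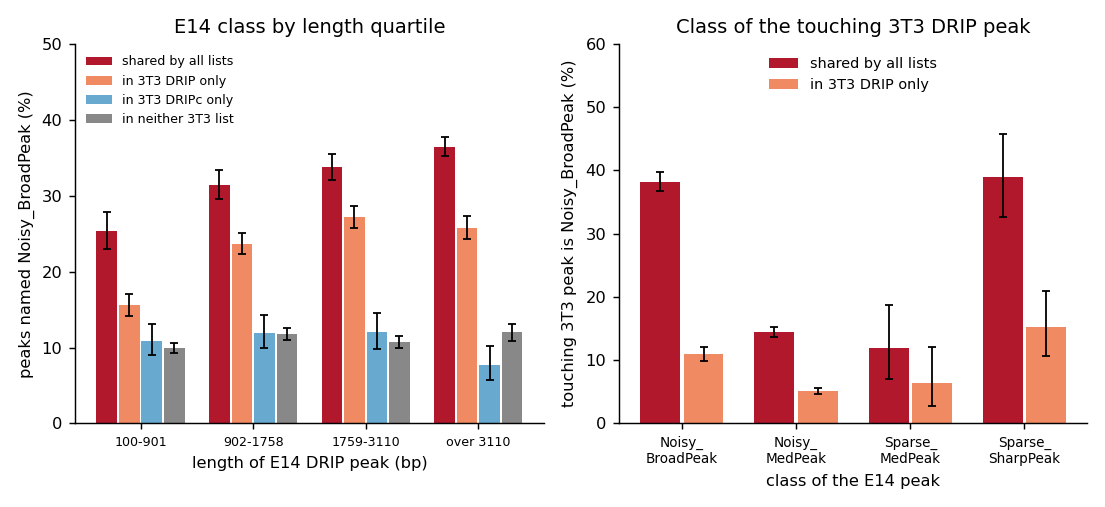
Left, share of E14 DRIP peaks named Noisy_BroadPeak (percent) in 4 quartiles of peak length (bp) for peaks shared by all lists, in 3T3 DRIP only, in 3T3 DRIPc only and in neither; right, share of the touching 3T3 DRIP peaks named Noisy_BroadPeak by the class of the E14 peak. Bars are shares with exact Clopper-Pearson 95% intervals. Shared peaks have the tallest bar in each length quartile, from 25.4% to 36.5%, and the intervals of the 2 groups overlap for Sparse_MedPeak on the right.

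Shared peaks lay on all 19 chromosomes, unevenly. Chromosome 11 held the most, 1037 of its 3733 E14 peaks or 27.8% (26.3 to 29.2%). Chromosome 18 held the fewest, 277 of 1498. As a share of the chromosome's E14 peaks, chromosome 19 was highest at 33.6% (31.1 to 36.1%), followed by chromosome 15 at 31.5% (29.6 to 33.4%) and chromosome 17 at 31.0% (29.2 to 32.9%), and the intervals of these 3 overlap. Chromosome 13 was lowest at 14.8% (13.4 to 16.4%), then chromosome 14 at 15.8% (14.3 to 17.3%) and chromosome 18 at 18.5% (16.6 to 20.6%). On chromosome 19, 61.2% of E14 peaks touched 3T3 DRIP and 37.2% touched DRIPc, and on chromosome 13, 32.5% and 24.0% did. By length of chromosome spanned by E14 peaks, shared peaks were densest on chromosome 11, with 8.73 per Mb, and sparsest on chromosome 13, with 2.85 per Mb. The density of all E14 peaks was not computed, so these counts and densities partly reflect how many E14 peaks a chromosome holds.

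**Figure D3:**
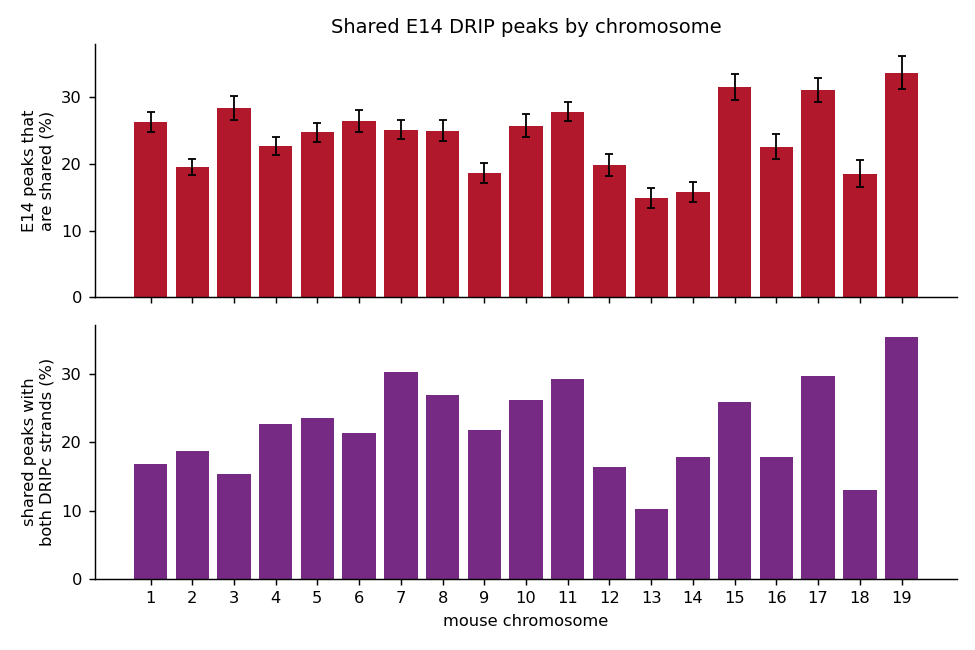
Top, share of each chromosome's E14 DRIP peaks that were shared by all lists (percent, with exact Clopper-Pearson 95% intervals); bottom, share of those shared peaks with 3T3 DRIPc signal on both strands (percent). Chromosome 19 is highest in both panels, at 33.6% and 35.4%, and chromosome 13 lowest in both, at 14.8% and 10.2%.

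Shared peaks stood closer to other E14 peaks than the rest did, and peaks in neither 3T3 list stood farthest apart. The gap to the nearest E14 peak of any kind was 743 bp at the median (quartiles 43 and 2762 bp) for shared peaks and 2188 bp (636 and 7386 bp) for the rest. Of shared peaks, 21.4% abutted or overlapped another E14 peak with a gap of at most 1 bp, against 9.68% of the rest. A neighbour within 10 kb was present at 91.7% of shared peaks and 79.5% of the rest, and no neighbour within 50 kb at 1.24% and 8.13%. In the share with any E14 neighbour within 10 kb, peaks found in one 3T3 list resembled shared peaks more than those in neither. A neighbour within 10 kb was present at 91.7% of shared peaks, 89.2% of peaks touched by 3T3 DRIP alone, 87.1% of those touched by DRIPc alone and 73.2% of those in neither list. The median gaps were 743, 1310, 1804 and 2995 bp in the same order. Gaps of at most 1 bp were found at 15.0% of peaks touched by 3T3 DRIP alone. They were found at 9.17% of those touched by DRIPc alone, nearer to the 6.85% of those in neither list. Within length quartiles the difference had the same direction. The median gap was 1447 bp for shared peaks and 3222 bp for the rest in the shortest quartile, and 489 and 1360 bp in the longest.

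Membership ran along the chromosome. When an E14 peak was shared, the next E14 peak was shared in 50.01% (49.1 to 50.9%) of cases, and when it was not shared, in 15.8% (15.4 to 16.2%). Some neighbours are joined by a single long 3T3 peak that touches both. Among neighbours with no 3T3 peak in common the shares were 32.1% (30.9 to 33.2%) after a shared peak and 13.3% (12.9 to 13.6%) after another. At gaps of 10 to 50 kb these were 33.2% and 15.5%, and at gaps over 50 kb 20.3% (18.0 to 22.8%) and 13.4% (12.6 to 14.2%). The windows along the genome were unevenly filled by both sets. Of 2424 windows of 1 Mb, 1561 held a shared peak, and 328 of them held 50% of all shared peaks. A peak of the rest, which are more numerous, was held by 2374 windows, and 471 of them held 50% of the rest. The densest window, from 56 to 57 Mb of chromosome 17, held 57 shared peaks and 55 others. It was followed by 52 to 53 Mb of chromosome 7 with 54 and 71, and by 79 to 80 Mb of chromosome 10 with 49 and 49. These windows were picked after their counts were seen.

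Joined at gaps of at most 10 kb, the shared peaks formed 6306 groups, of which 3417 were single peaks. The other 2889 chains held 9131 peaks, 72.8% of the set, with a median span of 13.3 kb, and 444 chains of 5 or more peaks held 22.6%. Such chains were not formed for the rest of the list or for a set of like size. The shares in chains therefore do not show whether shared peaks cluster more than other E14 peaks. The chain with most members, chr8:19965231-20033876, has 18 shared peaks in 68.6 kb, but 17 of them overlap another E14 peak, and only 21 shared peaks in the whole set do so. In that chain 15 members had DRIPc on both strands and 3 on the minus strand alone. The next, chr7:119167533-119254521, has 17 shared peaks in 87.0 kb, none of which overlap, and all 17 carried plus strand DRIPc alone, from 19 DRIPc peaks. Chains of 16 members at chr19:8968856-9092802, 15 at chr15:77585437-77674176 and 15 at chr1:95131122-95201141 held both strands, with 8, 6 and 10 members on both.

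**Figure D4:**
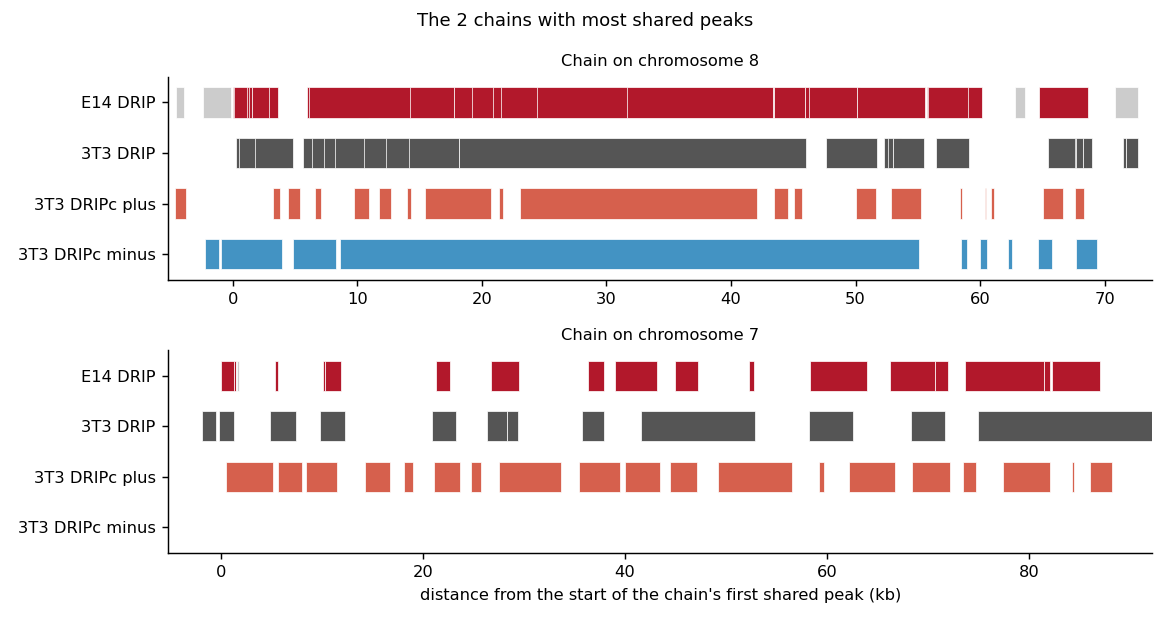
Peaks of the E14 DRIP list (dark red where shared, light grey where not), the 3T3 DRIP list (dark grey) and the 3T3 DRIPc list (plus strand light red, minus strand blue) in the chains with most shared peaks, by distance in kb from the start of the first shared peak. The chain on chromosome 8 has DRIPc peaks of both strands along it, and that on chromosome 7 has 19 DRIPc peaks on the plus strand and none on the minus strand.

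Shared peaks had RNA on both strands more often than the other E14 peaks with DRIPc signal; the rule ignored strand. Plus strand DRIPc alone was present at 4928 shared peaks (39.3%), minus strand alone at 4725 (37.7%) and both strands at 2895, or 23.1% (22.3 to 23.8%). At the 3271 E14 peaks touched by DRIPc but not by 3T3 DRIP, the shares were 49.2%, 47.8% and 3.03% (2.47 to 3.67%). The difference was also present among peaks of like length. Both strands were found at 12.5% (10.7 to 14.4%) of shared peaks and 3.27% (2.24 to 4.58%) of the others in the shortest quartile, and at 30.4% (29.2 to 31.6%) and 2.91% (1.73 to 4.56%) in the longest. Signal on both strands needs at least 2 DRIPc peaks, and shared peaks more often had them. Among peaks touched by exactly 2 DRIPc peaks, both strands were present at 55.6% (53.8 to 57.4%) of 2991 shared peaks and 29.0% (24.0 to 34.4%) of 307 others.

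By class, both strands were found at 34.1% (32.7 to 35.6%) of shared peaks named Noisy_BroadPeak, 39.9% (33.5 to 46.6%) of Sparse_SharpPeak, 16.9% (16.1 to 17.7%) of Noisy_MedPeak and 13.4% (8.16 to 20.4%) of Sparse_MedPeak. Of the chromosomes, 13 had the lowest share, 10.2%, and 19 the highest, 35.4%. Seen from the fibroblast list, 3T3 DRIP peaks with DRIPc had both strands at 25.6% (24.8 to 26.4%) of the 11262 that touched an E14 peak, against 11.2% (10.4 to 12.2%) of the 4842 that did not. In the longest quartile of 3T3 DRIP peaks these were 36.4% (35.1 to 37.7%) and 24.1% (21.7 to 26.6%), and in the shortest 8.94% (7.19 to 10.9%) and 2.46% (1.64 to 3.54%).

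Where both strands were present, they usually overlapped, but over a minor part of the peak. At 2642 of the 2895 peaks (91.3%) at least 1 base carried both. The bases with both strands made up a median of 22.4% of the E14 peak (quartiles 8.27 and 45.5%), and at 114 peaks at least 90% of it. The strands had no fixed order: the centre of the minus signal lay to the left of that of the plus signal, as for transcription pointing outwards, at 1458 peaks (50.4%), and at 124 of the 253 peaks where the strands shared no base. In bases, 14.8% of the DRIPc signal inside shared peaks was on both strands, against 5.91% over the whole DRIPc list, 0.951% inside E14 peaks touched by DRIPc alone and 2.39% outside E14 peaks. Inside 3T3 DRIP peaks the share was 16.9% where an E14 peak was also present and 7.17% where none was.

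Neighbouring shared peaks mostly carried the same strand at gaps of up to 50 kb. Pairs of consecutive shared peaks, each with a single strand, were split by whether one DRIPc peak touched both, since 1782 such pairs agree by construction. In the 6217 pairs touched by different DRIPc peaks, the strand was the same in 88.4% (86.9 to 89.7%) of 2119 pairs at gaps of up to 10 kb. It was the same in 88.1% (85.6 to 90.3%) at 10 to 20 kb, 79.9% (77.0 to 82.5%) at 20 to 50 kb, 67.6% (63.6 to 71.3%) at 50 to 100 kb and 55.6% (51.1 to 59.9%) at 100 to 200 kb. Beyond 200 kb, 51.1% (48.4 to 53.8%) of 1379 pairs had the same strand. Consecutive peaks of the whole DRIPc list, which include those at shared peaks, had the same strand in 88.5% of cases at 1 to 5 kb and 81.0% at 5 to 10 kb. Their share was 77.6% (76.0 to 79.1%) at 10 to 20 kb and 71.6% (70.0 to 73.2%) at 20 to 50 kb. For the shared pairs it was 90.3% at 1 to 5 kb and 86.7% at 5 to 10 kb. The shared pairs are E14 peaks chosen for a single strand, whereas those of the list are DRIPc peaks without that choice. The shares are therefore not like for like, and do not show whether strand agreement is higher at shared peaks. Where the strands of neighbours within 10 kb differed, minus before plus and plus before minus were about as frequent, with 121 and 125 pairs. Of the 1630 chains in which no member had both strands, 1494 (91.7%) were on 1 strand throughout.

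**Figure D5:**
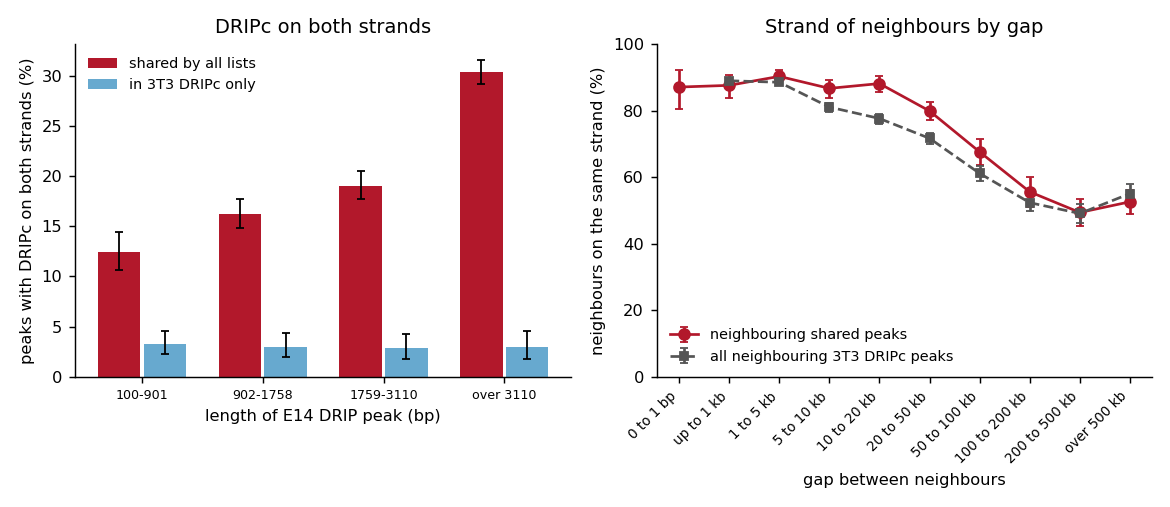
Left, share of E14 DRIP peaks with 3T3 DRIPc on both strands (percent) by quartile of peak length (bp), for peaks shared by all lists and peaks in 3T3 DRIPc only; right, share of neighbouring single-strand shared peaks, touched by different DRIPc peaks, that carry the same strand, by gap, beside all neighbouring 3T3 DRIPc peaks. Error bars are exact Clopper-Pearson 95% intervals. The sets on the right differ in unit and selection, so they are not like for like. Both strands are more frequent at shared peaks in each quartile, 30.4% against 2.91% in the longest, and strand agreement falls from 90.3% at 1 to 5 kb to 49.3% at 200 to 500 kb.

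The DRIPc peak was centred downstream about as often as upstream of the centre of the E14 peak. Of the 7980 shared peaks touched by exactly 1 DRIPc peak, its centre lay downstream, in the direction of the RNA, in 50.8% of cases, with a median offset of 31 bp (quartiles -876 and 1017 bp). The DRIPc peak lay inside the E14 peak in 31.6%, ran past its upstream end alone in 20.7%, past its downstream end alone in 22.3% and past both ends in 25.4%. At peaks touched by DRIPc alone, which are shorter, the same shares were 20.8%, 18.6%, 21.2% and 39.4%.

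Of the 5 longest shared peaks, 4 were covered over at least 92% of their length by each 3T3 list, with DRIPc on both strands. The longest, chr8:126060934-126148776, is an 87.8 kb peak named Noisy_BroadPeak, with 99.1% of its length in 3T3 DRIP and 100% in DRIPc, and 87.1 kb common to the 3 lists. It was followed by chr9:3000001-3038429 of 38.4 kb, with 38.3 kb in common. No list holds a position on chromosome 9 before 2999891, just ahead of this peak. The third, chr6:47602233-47636810, is a 34.6 kb Sparse_SharpPeak that lay wholly within both 3T3 lists, with DRIPc on both strands. The fourth, chr5:139864074-139895815 of 31.7 kb, differed from them. It is a Noisy_MedPeak with plus strand DRIPc alone, 13.4% of it was covered by 3T3 DRIP and 12.8% by DRIPc, and no base was common to the 3 lists. The fifth, chr8:19859511-19890059 of 30.5 kb, overlaps another E14 peak and had 27.7 kb in common, with DRIPc on both strands. The 5 peaks with most bases common to the 3 lists were the 4 of these that both 3T3 lists covered and chr4:118780658-118809844, a Sparse_SharpPeak of 29.2 kb with 27.9 kb in common.

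Further along the order of length, signal on both strands became less frequent. It was present at 18 of the 30 shared peaks over 20 kb, at 44.7% of the 555 between 10 and 20 kb, at 33.3% of the 2370 between 5 and 10 kb and at 19.2% of the 9593 shorter ones. The longest shared peak with minus strand DRIPc alone was chr5:118541690-118568917, of 27.2 kb, with 70.1% of its length in 3T3 DRIP and 21.1% in DRIPc. The longest Sparse_MedPeak was chr1:165314696-165334128, of 19.4 kb, also on the minus strand, with 12.9 kb common to the 3 lists.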

How the data were processed

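The authors deposited the 3 mouse lists as peak positions (start and end in bp, a unit of its own kind with no score beyond a 0 in every DRIP row), per the file headers and columns. No label or header names the peak caller, its threshold or filters. The submitters' processing notes list BWA 0.6.1, TopHat2 2.0.5, Bismark 0.7.7 and the builds hg19, mm9 and GRCm38, with no role. Positions were read as mm9, since all 3 lists reach position 196867190 or further on chromosome 1, beyond its end in GRCm38, and use chromosome names of mm9. Track lines give the DRIPc strand, and DRIPc positions are multiples of 10 bp. Positions are printed counted from 1.

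Overlaps, gaps, chains and shares were computed in Python 3.11.15 with numpy 2.4.6, pandas 2.3.3, scipy 1.17.1 and matplotlib 3.10.9. bedtools 2.31.1 also gave 12548 shared peaks. Quartiles of length are those of all E14 peaks used. The assignment of group and strand was tested on 4000 simulated peaks and put 100% in their planted group and strand. The simulated peaks were evenly spaced and did not overlap, and gaps and chains were not part of that test. Named regions are the 5 longest members, the 5 with most bases common to the 3 lists (summed, not as one run), the 5 largest chains, the longest of each class and strand state, the 3 highest and 3 lowest chromosomes, and the 3 peaks at either side of the rule. Members, lists and measures were chosen with earlier results of these data known. No base composition was computed.

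The alternatives were 50% cover by each list, 1 common base, the longest 50% of each list, merging within 1 kb, no peaks over 20 kb, chromosomes X and Y added, other chain gaps and other edge tolerances. Lists from human lines were not used here.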

Additional observations from a re-analysis of the deposited data

Results flagged for a closer look

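Shared peaks also occur on sequences that the comparisons above leave out. On chromosome X, 168 of 1408 E14 peaks met both 3T3 lists, or 11.9% (10.3 to 13.7%), against 24.0% on chromosomes 1 to 19 and a lowest share of 14.8% on chromosome 13. On random and unplaced sequences, 23 of 177 did, or 13.0% (8.42 to 18.9%). They are listed because these sequences are outside the comparisons, and nothing was read from the counts. On chromosome Y, none of 27 E14 peaks was shared, with 6 peaks there in the 3T3 DRIP list and 9 in the DRIPc list.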

How the results depend on the processing

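Of 46 values recomputed under other settings, 23 stayed within the 95% interval of the value reported and 23 moved beyond it. Shared peaks stayed longer, and more often named Noisy_BroadPeak, than the rest, and more often on both strands than peaks touched by DRIPc alone, under each setting that changed the peaks or the overlap rule. For the 50% and common base rules, strand was set against the unaltered group touched by DRIPc alone. Chain gaps and edge tolerances were varied for chains and edges alone. With at least 50% of the E14 peak covered by each 3T3 list, 11.9% of E14 peaks were shared (18.9% on chromosome 19), with a median of 2397 bp, 35.9% named Noisy_BroadPeak, 60.6% in chains and 31.3% on both strands. With 1 base common to the 3 lists, 23.0% were shared and 24.0% of them on both strands. With the longest 50% of each list, 22.6% were shared, the median was 4120 bp, 37.9% were Noisy_BroadPeak and 59.6% were in chains. With peaks within 1 kb merged, these were 23.3%, 4029 bp, 26.8% and 54.0%, and 24.7% were on both strands. Without peaks over 20 kb, 22.6% were shared and 71.3% in chains, and both strands were found at 22.6% of shared peaks and 6.76% of those touched by DRIPc alone. Chains at 5 and 50 kb held 63.1% and 89.6% of shared peaks. Edges within 20 and 200 bp made up 2.41% and 18.9%. Leaving out E14 peaks that overlap one another, an alternative chosen after seeing the data, moved no value beyond its interval. No paired analysis was possible because each list stands for 1 sample. Depth is unknown, so a missing peak may be one below the authors' threshold.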

Other observations

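The DRIP lists give a sign in column 6 although the assay is unstranded. It is minus at 24 shared peaks (0.191%) and 170 of the rest (0.428%). Overlap between E14 rows is found at 21 shared peaks and 39 of the rest.

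Near chromosome starts, within 100 kb of the first position that any list holds, chromosome 17 had 12 shared peaks, 3 of them with DRIPc on both strands. Chromosome 11 had 5, all with DRIPc on both strands and the longest of 25.4 kb. These chromosomes have the highest counts of the 19 and were picked after the counts were seen. The number of all E14 peaks in the same stretches was not counted. The counts therefore do not show whether shared peaks, or both strands, are more frequent there than elsewhere.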
